A study of Homo sapiens with 6 samples.

Results

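Notch signalling passes a signal between touching cells, and 10 of its genes are described here: the receptor genes NOTCH1, NOTCH2 and NOTCH3, the ligand genes JAG1, JAG2 and DLL1, the target genes HES1, HEY1 and NRARP, and the coactivator gene MAML1. They were found by their symbols in a deposited table of 20289 genes, and all 10 were present. The libraries came from Huh7 cells, a human hepatocellular carcinoma line, and consisted of 3 wild-type and 3 UBE2S knockout libraries of poly(A) RNA. UBE2S encodes a ubiquitin-conjugating enzyme that extends ubiquitin chains with the anaphase-promoting complex, and the series was made to look for genes downstream of it. Wild type and knockout share the Huh7 background, and no other treatment is named for either group. The labels name neither the method of knockout nor the number of clones, and do not say whether replicates were separate cultures, so any p-value below measures the spread between these libraries, which may be technical. The genes were picked with their wild-type and knockout counts known. Their differences between the groups are therefore given as descriptions, with a standard error from the fit and without a p-value.

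A Notch receptor is bound by a Jagged or Delta ligand on a neighbouring cell, after which ADAM metalloproteases and gamma-secretase cut it and free its intracellular domain. That domain enters the nucleus and joins the DNA-binding protein RBPJ and a Mastermind protein such as MAML1, and the complex activates genes that include HES1, HEY1 and NRARP. HES1 and HEY1 are repressors of transcription, and NRARP binds the intracellular domain and dampens the signal. In the liver, JAG1 and NOTCH2 are best known for the formation of bile ducts, whereas NOTCH3 is best known from the mural cells that wrap blood vessels.

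The promoter windows of 3 members are shown because NOTCH3 had the largest difference between the groups and because the target genes HES1 and NRARP differed in opposite directions. They are RefSeq windows on GRCh38.p14, each running 5′ to 3′ on the strand of the gene from 250 bases before the annotated start to 50 bases after it. HES1 lies on the plus strand (chr3:194135898-194136197), and NRARP (chr9:137302222-137302521) and NOTCH3 (chr19:15200946-15201245) lie on the minus strand. Capitals mark each match to TGGGAA, the core of the sequence that RBPJ binds.
HES1: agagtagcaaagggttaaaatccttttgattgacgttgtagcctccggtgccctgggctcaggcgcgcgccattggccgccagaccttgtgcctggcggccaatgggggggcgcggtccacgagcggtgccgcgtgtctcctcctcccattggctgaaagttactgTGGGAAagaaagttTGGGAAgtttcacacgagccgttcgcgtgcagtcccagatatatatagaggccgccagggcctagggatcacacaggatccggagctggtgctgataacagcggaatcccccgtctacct
NRARP: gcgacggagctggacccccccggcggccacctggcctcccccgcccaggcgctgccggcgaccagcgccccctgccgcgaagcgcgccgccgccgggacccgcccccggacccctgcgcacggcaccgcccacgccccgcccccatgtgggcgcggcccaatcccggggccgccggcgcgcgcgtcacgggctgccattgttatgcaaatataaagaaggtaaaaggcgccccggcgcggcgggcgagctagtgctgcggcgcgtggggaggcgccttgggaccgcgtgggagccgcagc
NOTCH3: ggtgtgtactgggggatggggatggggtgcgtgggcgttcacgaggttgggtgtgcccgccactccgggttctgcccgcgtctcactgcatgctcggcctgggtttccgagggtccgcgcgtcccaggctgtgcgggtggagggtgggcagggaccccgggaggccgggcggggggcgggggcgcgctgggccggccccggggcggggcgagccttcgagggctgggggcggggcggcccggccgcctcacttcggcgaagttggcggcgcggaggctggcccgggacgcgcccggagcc
The HES1 window held 2 matches to the core, starting 84 and 70 bases before the start, and the first of them was part of the longer motif GTGGGAA. The windows of NRARP, NOTCH3, NOTCH1, NOTCH2, JAG1, JAG2 and MAML1 held no match to either on either strand. For RBPJ only TGGGAA and GTGGGAA were sought, so variants of these motifs are not marked and may be present in any window. Entries for 8 of the 10 members were found, with HEY1 and DLL1 not among them. For comparison, 24.0% of 35116 RefSeq windows of the same 300 bases held TGGGAA on either strand, and 6.25% held GTGGGAA, every match of which is also a match to the core. The N-box CACNAG, a sequence bound by HES factors, was matched in 6 of the 8 windows on either strand, with 4 of the 10 matches in the HES1 window, and was present in 38.0% of all windows. These matches are letters in a window and were not tested for binding.

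The knockout label was checked first. UBE2S mRNA was clearly lower in the knockout, with 6332, 5129 and 6068 counts in wild type against 1046, 1062 and 1147 (edgeR adjusted p = 1.6e-12, log2 fold change -2.29). The libraries summed to between 21840499 and 27910396 estimated counts. Wild-type replicate 1 stood somewhat apart from the other wild-type libraries, differing from them by 8.39 and 10.9 times the variance that counting alone gives (chi-square over its degrees of freedom), where the pair itself gave 1.79. Of the hepatocyte marker list used here, AFP, ALB and APOB were the most abundant, at 12606, 6475 and 6074 CPM in wild type. CPM are counts scaled to a common library total of 1e6.

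Of the 10 members, 9 passed the filter on low counts. In the edgeR fit over all genes, 4 of these were higher and 4 lower in the knockout at an adjusted p below 0.05, and 1 was not called. Of all 13265 genes tested, 60.1% were called (29.4% higher, 30.7% lower), and since the members were picked with this contrast known, nothing is read from their count. The same 8 members had groups that did not overlap in CPM, as did 65.9% of all tested genes. The median log2 fold change of the 9 was 0.16 and their median absolute value 0.42, against -0.00057 and 0.23 over all genes tested.

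**Figure D1:**
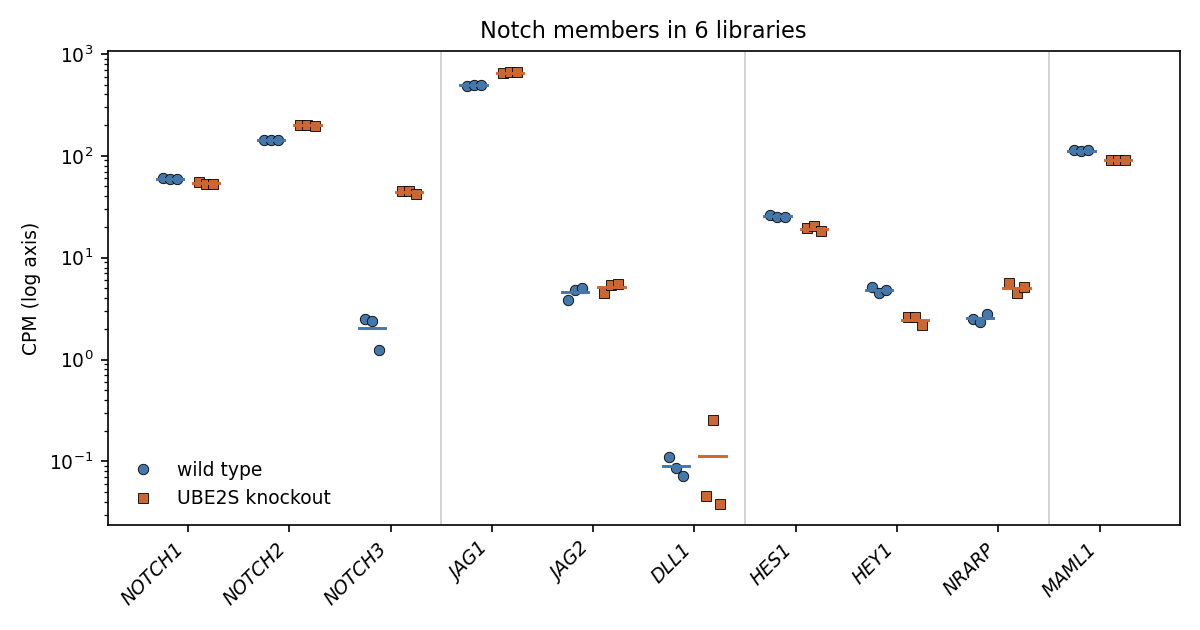
CPM (log axis) of the 10 members in each library, with wild type as circles, UBE2S knockout as squares and bars at the group means; each group has 3 libraries. NOTCH3 goes from between 1.25 and 2.48 CPM in wild type to between 41.9 and 45.2 CPM in the knockout, while the other members lie much closer to their wild-type levels.

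Among the receptors, NOTCH3 was far more abundant in the knockout, NOTCH2 was somewhat higher and NOTCH1 slightly lower. NOTCH3 (ENSG00000074181) is a minus-strand gene of chromosome 19 (15159038 to 15200981, GENCODE release 29 on GRCh38). The wild-type libraries held 67, 56 and 35 counts of it, and the knockout libraries 983, 1057 and 1086. In CPM these were 2.48, 2.40 and 1.25 against 44.7, 45.2 and 41.9. Every knockout library was thus well above every wild-type library, and wild-type replicate 3 was the lowest of all. The log2 fold change was 4.44 (SE 0.12), and the ratio of summed counts, each divided by its group's summed TMM-scaled library size, was 21.7, with an exact 95% binomial interval of 18.5 to 25.7 that covers counting error alone. Leaving out single libraries gave log2 fold changes of 4.16 to 4.62. Of the 10606 tested genes that averaged 5 CPM or more, 0 had a larger increase. NOTCH3 reached that average only through its knockout libraries. Among all 13265 tested genes 2 had a larger increase, PTN and COL4A2, both with at most 4 counts in any wild-type library. These 2 are named here after their values were seen. With both directions counted, NOTCH3 ranked 48 among the 13265 by absolute log2 fold change. Most genes that differed by more were thus lower in the knockout.

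NOTCH2 (ENSG00000134250; chromosome 1, minus strand, 119911553 to 120069626) was at 143, 144 and 142 CPM in wild type and at 202, 201 and 194 CPM in the knockout. The groups did not overlap, and the log2 fold change was 0.48 (SE 0.03). NOTCH2 has partial copies, the NOTCH2NL genes, and its deposited values were not whole numbers, as when reads are shared between similar genes. The copies differed in the same direction: NOTCH2NLA had a log2 fold change of 0.95, NOTCH2NLC of 1.73 and NOTCH2NLB of 1.32, all called, while NOTCH2NLR (0.64) was not called; these 4 were chosen after their values were seen. NOTCH2NLA held 204.67, 170.28 and 222.39 estimated counts in wild type, against 338.66, 335.7 and 373.14 in the knockout, against between 3358.77 and 5041.56 for NOTCH2 itself. The labels do not say how reads were divided between NOTCH2 and its copies, so the value for NOTCH2 is less certain than its standard error.

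NOTCH1 (ENSG00000148400; chromosome 9, minus strand, 136494433 to 136545786) was at 60.7, 59.5 and 59.3 CPM in wild type and at 55.2, 52.7 and 53.4 CPM in the knockout. The knockout values all lay below the wild-type values, but by little: the log2 fold change was -0.16 (SE 0.04). The remaining receptor gene, NOTCH4, was near the limit of detection, with at most 5 counts in any library.

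**Figure D2:**
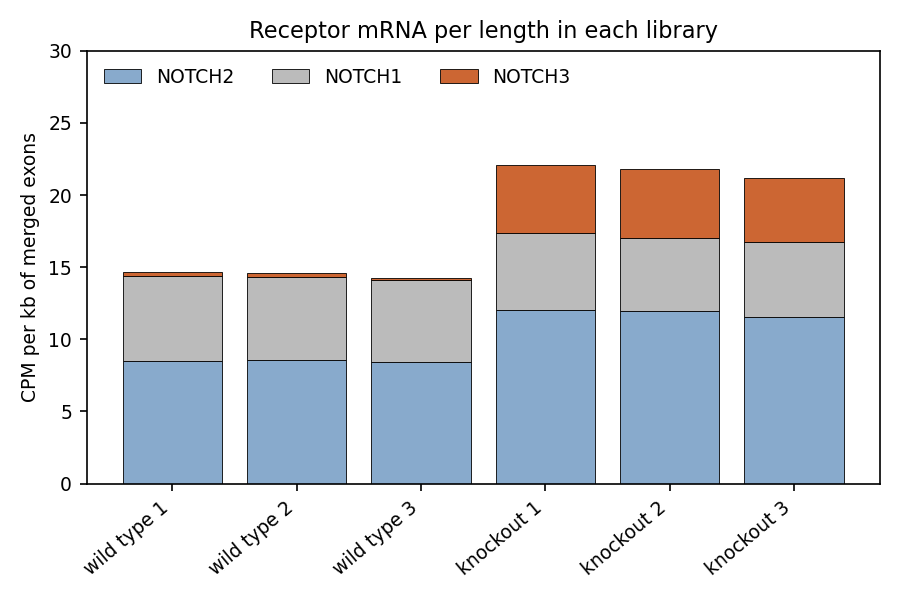
Receptor mRNA per length (CPM per kb of merged exons) in each of the 6 libraries, stacked by gene with the axis starting at 0. The stacks reach 14.3 to 14.6 in wild type and 21.2 to 22.1 in the knockout, and the NOTCH3 segment is visible as a large part only in the knockout libraries.

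Divided by the length of all exons merged, the mRNA of NOTCH1, NOTCH2 and NOTCH3 together came to 14.5 ± 0.192 CPM per kb in wild type and 21.7 ± 0.479 CPM per kb in the knockout (mean ± SD, n = 3 each). NOTCH3 made up 1.80%, 1.76% and 0.931% of this sum in the wild-type libraries and 21.5%, 22.03% and 21.1% in the knockout libraries. NOTCH2 held the largest share in every library, at 58.7% ± 0.436 in wild type and 54.6% ± 0.178 in the knockout. NOTCH1 held 39.8% ± 0.357 in wild type and 23.9% ± 0.561 in the knockout as a share, although its own level differed little. With coding length in place of exon length, the NOTCH3 share was 1.08% in wild type and 15.9% in the knockout. In bulk RNA, more cells with the transcript and more transcript per cell cannot be told apart.

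Among the ligands, JAG1 was the abundant gene and was moderately higher in the knockout. JAG1 (ENSG00000101384; chromosome 20, minus strand, 10637684 to 10673999) was at 479, 499.97 and 493 CPM in wild type and at 654, 658 and 660.4 CPM in the knockout. The groups did not overlap, and the log2 fold change was 0.42 (SE 0.03). JAG2 (ENSG00000184916; chromosome 14, minus strand, 105140981 to 105168824), the other Jagged ligand, was at 3.85, 4.85 and 5.03 CPM in wild type and at 4.46, 5.34 and 5.51 CPM in the knockout. These groups overlapped, and the log2 fold change of 0.16 (SE 0.13) was little more than its error. With DESeq2 the SE was 0.19, larger than the log2 fold change of 0.16. DLL1 (ENSG00000198719; chromosome 6, minus strand, 170282206 to 170306565), a Delta ligand, did not pass the filter, with 3, 2 and 2 counts in wild type, against 1, 6 and 1 in the knockout. A difference in DLL1 was not detectable at this depth; its gene also overlaps FAM120B on the opposite strand, and strand was not stated for the counting. Per length of merged exons, JAG1 accounted for 98.6% ± 0.149 of the mRNA of the 3 ligands in wild type and 98.8% ± 0.145 in the knockout, so the ligand make-up was nearly the same in both groups.

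The 3 target genes did not differ in one direction: HES1 and HEY1 were lower in the knockout and NRARP was higher. HES1 (ENSG00000114315; chromosome 3, plus strand, 194136145 to 194138732) was at 26.0, 25.1 and 25.1 CPM in wild type and at 19.4, 20.5 and 18.1 CPM in the knockout. Every knockout library was below every wild-type library, and the log2 fold change was -0.40 (SE 0.06). HEY1 (ENSG00000164683; chromosome 8, minus strand, 79764010 to 79767863) had 139, 106 and 136 counts in wild type, against 57, 61 and 57 counts in the knockout. In CPM this was 5.14, 4.55 and 4.85 against 2.59, 2.61 and 2.197, again without overlap, and the log2 fold change was -0.98 (SE 0.13). HEY1 thus had a larger difference than HES1, at a far lower level.

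NRARP (ENSG00000198435; chromosome 9, minus strand, 137300482 to 137302251) had 68, 55 and 79 counts in wild type, against 123, 105 and 134 in the knockout. In CPM it was at 2.51, 2.36 and 2.82 against 5.59, 4.49 and 5.17, with every knockout library above every wild-type library. Its log2 fold change was 0.98 (SE 0.13), close in size to that of HEY1 and opposite in sign. For these low counts the ratio of summed counts, scaled for library size in the same way, was 1.97 for NRARP (exact 95% binomial interval 1.65 to 2.35) and 0.505 for HEY1 (0.420 to 0.605), again for counting error alone.

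MAML1 (ENSG00000161021; chromosome 5, plus strand, 179732850 to 179777286) was at 113, 110.4 and 115 CPM in wild type and at 90.2, 90.7 and 91.0 CPM in the knockout. The groups did not overlap, and the log2 fold change was -0.31 (SE 0.03). MAML1 was the second most abundant member per length in both groups.

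Ordered by CPM per kb of merged exons, the wild-type levels ran from JAG1 (52.8) through MAML1 (19.0), HES1 (12.3), NOTCH2 (8.505) and NOTCH1 (5.77) to HEY1 (1.499), NRARP (1.45), JAG2 (0.715), NOTCH3 (0.217) and DLL1 (0.0277). HEY1 and NRARP overlapped over the 3 wild-type libraries and cannot be ordered, and the other neighbours in this order did not overlap. In the knockout the order was JAG1 (70.7), MAML1 (15.3), NOTCH2 (11.8), HES1 (9.38), NOTCH1 (5.18), NOTCH3 (4.68), NRARP (2.87), JAG2 (0.798), HEY1 (0.763) and DLL1 (0.0352). There JAG2 and HEY1 overlapped, and NOTCH3 had moved from rank 9 to rank 6, just below NOTCH1. With coding length in place of exon length, 8 of the 10 members kept their rank in wild type and 5 in the knockout, so the middle of the order depends on the length used.

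The genes whose profile over the 6 libraries was most like that of NOTCH3 were sought among tested genes averaging 1 CPM or more. Likeness was the root mean square difference between log2 CPM profiles, each centred on its own mean, with 0.5 CPM added. The nearest 5 were PRSS35 (0.61), EDIL3 (0.69), IGFBP2 (0.83), AEBP1 (0.88) and SPP1 (0.89). Their log2 fold changes were 3.59, 3.61, 2.89, 2.95 and 2.62 in that order, against 4.44 for NOTCH3. Large increases were bound to follow, because the genes were chosen by these same profiles, so nothing is read from them. PRSS35 and EDIL3 averaged 0.787 and 0.609 CPM in wild type, and reached an average of 1 CPM only through their knockout libraries. EDIL3, which encodes a secreted integrin ligand, had 21, 12 and 15 counts in wild type, against 181, 177 and 177 in the knockout. IGFBP2, which binds insulin-like growth factors, had 49, 50 and 65 against 320, 382 and 404 counts. All 5 lie on chromosomes other than 19.

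The rest of the pathway was examined through 80 other genes sorted into 9 roles, all of which were in the table and 70 of which were tested. Of the 70, 20 rose and 24 fell in the knockout (edgeR adjusted p below 0.05), and 26 were not called. That is 62.9% called, near the 60.1% of all tested genes. Their median log2 fold change was -0.054 and their median absolute value 0.27, against 0.23 over all genes, and 1 of them, SNAI2, reached an absolute value of 1. No gene among them differed by nearly as much as NOTCH3. These 80 genes were listed with earlier results of these data known, so nothing is read from the counts of calls.

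**Figure D3:**
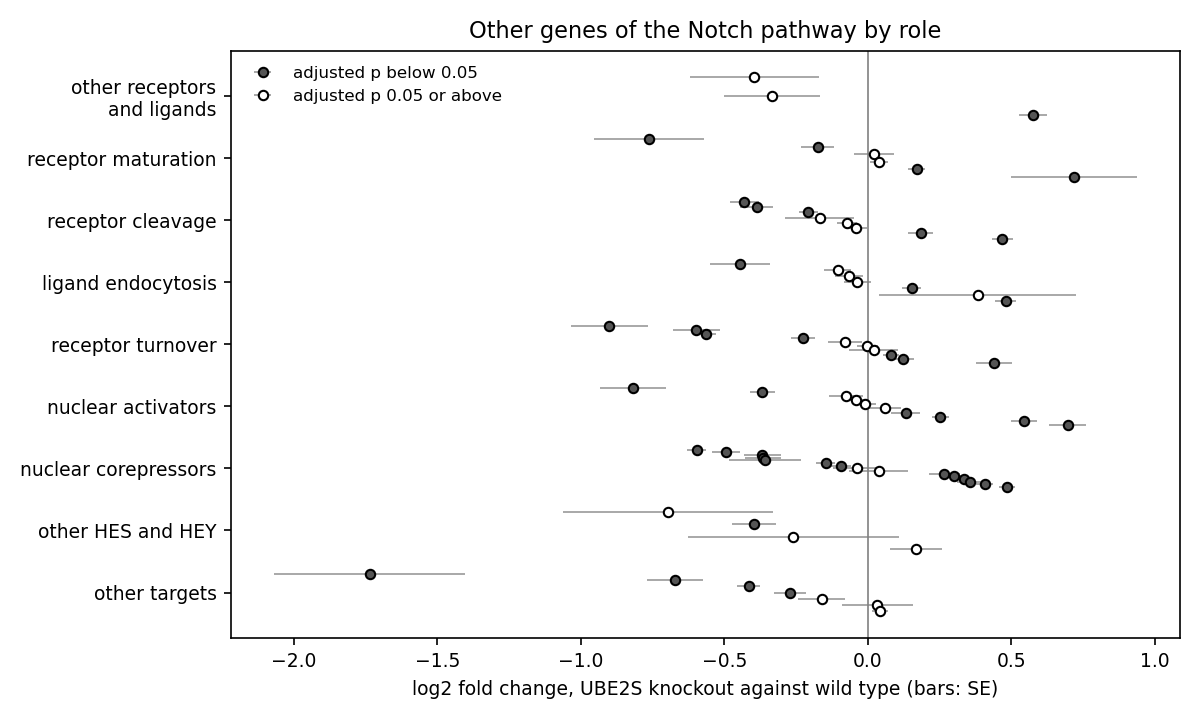
Log2 fold change (UBE2S knockout against wild type, bars: SE) of the 70 tested other pathway genes by role, filled where the edgeR adjusted p is below 0.05. Most roles hold genes on both sides of 0, and the point farthest from 0 is SNAI2 at -1.74.

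Genes that make or mature the receptors went both ways. Of the other receptors and ligands, 1 of 3 tested rose and 0 fell (edgeR; also 0 at an unadjusted p below 0.05, with DESeq2 and with limma-voom). The gene that rose was EGFL7, a secreted protein reported to bind Notch receptors, which went from 27.7 ± 1.01 to 41.2 ± 1.36 CPM (log2 fold change 0.58, SE 0.05). The endothelial ligand gene DLL4 was at 2.85 and 2.27 CPM and was not called (edgeR adjusted p = 0.10). Of 6 genes of receptor maturation, 2 rose and 2 fell. POFUT1, which adds O-fucose to the receptors, rose slightly (0.17, SE 0.03), and of the Fringe genes, whose enzymes extend that fucose and bias ligand choice, MFNG rose (0.72, SE 0.22) and LFNG fell (-0.76, SE 0.19), both at about 1 to 2 CPM. POGLUT1, which adds O-glucose, fell (-0.18, SE 0.06). MFNG was not called with DESeq2 (adjusted p = 0.063) or without knockout replicate 2 (edgeR adjusted p = 0.077). POGLUT1 was not called with DESeq2 (adjusted p = 0.14), without wild-type replicate 3 (edgeR adjusted p = 0.057) or without knockout replicate 1 (0.056).

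Of the 8 genes of receptor cleavage, 2 rose and 3 fell. The gamma-secretase subunit gene APH1A rose (0.47, SE 0.04), while its paralogue APH1B (-0.39, SE 0.06) and the subunit gene PSENEN (-0.43, SE 0.05) fell. The 2 metalloprotease genes also went apart, with ADAM17 higher (0.18, SE 0.04) and ADAM10 lower (-0.21, SE 0.03). Of 7 genes of ligand endocytosis, 2 rose and 1 fell. MIB1, the ubiquitin ligase that drives ligand uptake, rose from 129.9 ± 6.15 to 181 ± 3.92 CPM (0.48, SE 0.04), the dynamin gene DNM2 rose slightly (0.15, SE 0.03), and the ligase gene NEURL1B fell (-0.45, SE 0.10).

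Of 10 tested genes of receptor turnover, 3 rose and 4 fell. FBXW7, the ligase subunit that marks the intracellular domain for degradation, rose (0.44, SE 0.06), and NUMBL, a relative of the Notch inhibitor NUMB, fell from 5.90 ± 0.936 to 3.14 ± 0.0524 CPM (-0.90, SE 0.13). The Deltex-family genes DTX2 (-0.60, SE 0.08) and DTX3L (-0.56, SE 0.04) fell, and so did NUMB itself (-0.23, SE 0.04). The ligase genes NEDD4 (0.12, SE 0.04) and ITCH (0.080, SE 0.03) were called higher by small amounts. With DESeq2 neither was called (adjusted p = 0.070 and 0.077). NEDD4 was also not called without wild-type replicate 2, knockout replicate 1 or knockout replicate 3 (edgeR adjusted p = 0.077, 0.0503 and 0.070), and ITCH was not called without knockout replicate 1, 2 or 3 (0.11, 0.055 and 0.094).

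The nuclear genes of the pathway were mixed. Of 10 tested genes listed here as activators, CCNC and CDK8 among them, 4 rose and 2 fell. RBPJ, the DNA-binding partner of all Notch receptors, rose slightly (0.25, SE 0.03). The Mastermind relatives of MAML1 moved in opposite directions, MAML3 from 14.8 ± 1.11 to 24.0 ± 0.769 CPM (0.70, SE 0.06) and MAML2 from 5.92 ± 0.275 to 3.34 ± 0.337 CPM (-0.82, SE 0.11). CCNC, the cyclin that pairs with CDK8, rose (0.54, SE 0.05). Of the related acetyltransferase genes, EP300 fell (-0.37, SE 0.04) and CREBBP was called higher (0.13, SE 0.05). The call of CREBBP was lost without wild-type replicate 2 or 3 or knockout replicate 1, 2 or 3 (edgeR adjusted p = 0.081 to 0.16), and its log2 fold change was 0.21 without wild-type replicate 1 and 0.085 without wild-type replicate 3. Of 15 tested corepressors, 6 rose and 7 fell, which is 86.7% called, against 60.1% of all tested genes. As this list too was chosen with earlier results known, nothing is read from that share. TLE1 (0.48, SE 0.03) and SIN3A (0.41, SE 0.03) rose, and SPEN (-0.60, SE 0.03), HDAC1 (-0.49, SE 0.05) and TLE4 (-0.37, SE 0.06) fell.

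The counts of other target genes stand beside 29.4% of all tested genes called higher and 30.7% called lower, and both lists are small. Of the 4 tested HES and HEY relatives, 0 rose and 1 fell, HES4 (-0.40, SE 0.08), with 373, 343 and 364 counts in wild type, against 243, 229 and 275 in the knockout. HES2, HES5 and HES7 did not pass the filter. Without that filter HES2, with 9, 9 and 7 counts against 1, 2 and 1, was called lower (edgeR adjusted p = 0.0066, and 0.039 with DESeq2). HES7 was not called by either tool, and HES5 was not called by edgeR and had no adjusted p from DESeq2. Of 7 tested genes reported as Notch targets in other tissues, 0 rose and 4 fell. In both lists the number higher was also 0 at an unadjusted edgeR p below 0.05, with DESeq2 and with limma-voom. SNAI2, a repressor linked to mesenchymal transition, went from 43, 25 and 32 counts to 6, 14 and 7 (-1.74, SE 0.33, edgeR adjusted p = 6.2e-04). The cell cycle inhibitor gene CDKN1A (-0.67, SE 0.10) and the biliary transcription factor gene SOX9 (-0.42, SE 0.04) also fell, as did MYC (-0.27, SE 0.06).

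Markers of cell types in which Notch genes are known were measured beside these values. The counts of markers called stand beside 29.4% of all tested genes called higher and 30.7% called lower. The marker lists were chosen with earlier results of these data known, so nothing is read from these counts. Of 9 mural cell markers, 6 were tested, and 5 rose and 1, RGS5, fell. KCNJ8 went from 7.08 ± 0.212 to 27.0 ± 1.54 CPM (1.93, SE 0.07), MCAM from 7.58 ± 0.336 to 19.7 ± 1.21 CPM (1.38, SE 0.07) and ABCC9, which encodes the channel partner of KCNJ8, from 28.8 to 40.8 CPM (0.50, SE 0.05), and PDGFRB (0.96, SE 0.07) and CSPG4 (1.23, SE 0.15) rose as well. The summed level of the 9 was 60.2 to 63.1 CPM in wild type, against 110.9 to 115 CPM in the knockout. ABCC9 was the largest part of that sum in both groups. Every knockout sum was above every wild-type sum, and 32.3% of all tested genes likewise had every knockout library above every wild-type library. The contractile markers ACTA2, MYH11 and DES, however, had at most 6 counts in any library of either group. Whether the other mural markers have a part in the NOTCH3 difference was not tested.

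Of 7 cholangiocyte markers, 6 were tested, 1 rose (SPP1, 2.62, SE 0.09) and 2 fell (SOX9 and EPCAM), and KRT19 was at 103 and 101 CPM. Their summed level was 365 to 399 CPM in wild type, against 335 to 339.5 CPM in the knockout, and KRT7 was at or near 0. Of 7 endothelial markers, 2 were tested, with ESAM higher (1.297, SE 0.27) and PECAM1 lower (-1.46, SE 0.15), and the sum was 6.28 to 7.51 CPM in wild type, against 3.32 to 4.40 CPM in the knockout. CLDN5 was at 0.220 and 0.209 CPM and KDR had 0 counts. Of 6 immune markers 3 were tested and all 3 fell, LYZ (-0.74, SE 0.03), CD68 (-1.004, SE 0.08) and CD14 (-0.48, SE 0.12), with a sum of 289.8 to 313 CPM against 179 to 182 CPM and CD3E at 0 counts. Of 8 hepatocyte markers, 1 rose (APOA1) and 7 fell, by at most 0.57 on the log2 scale, and their sum was 30245 to 30783 CPM in wild type, against 26699.9 to 27212.5 CPM in the knockout. The part of these markers in the Notch values was not tested.

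The chromosome neighbours of the members were set beside them, because genes along a chromosome can shift together. For each member the median log2 fold change of the 25 tested genes on each side was taken, or of fewer near a chromosome end. Around NOTCH3, 41 of 50 neighbours lay above 0 and 9 below, with a median of 0.20. Among them ILVBL (0.76, SE 0.08) and SYDE1 (0.64, SE 0.05) rose, and the largest value among the 50 was 1.65, for BRME1; these 3 were chosen by position or after their values were seen. With the median of its neighbours removed, NOTCH3 stood at 4.24, against 4.44 before.

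**Figure D4:**
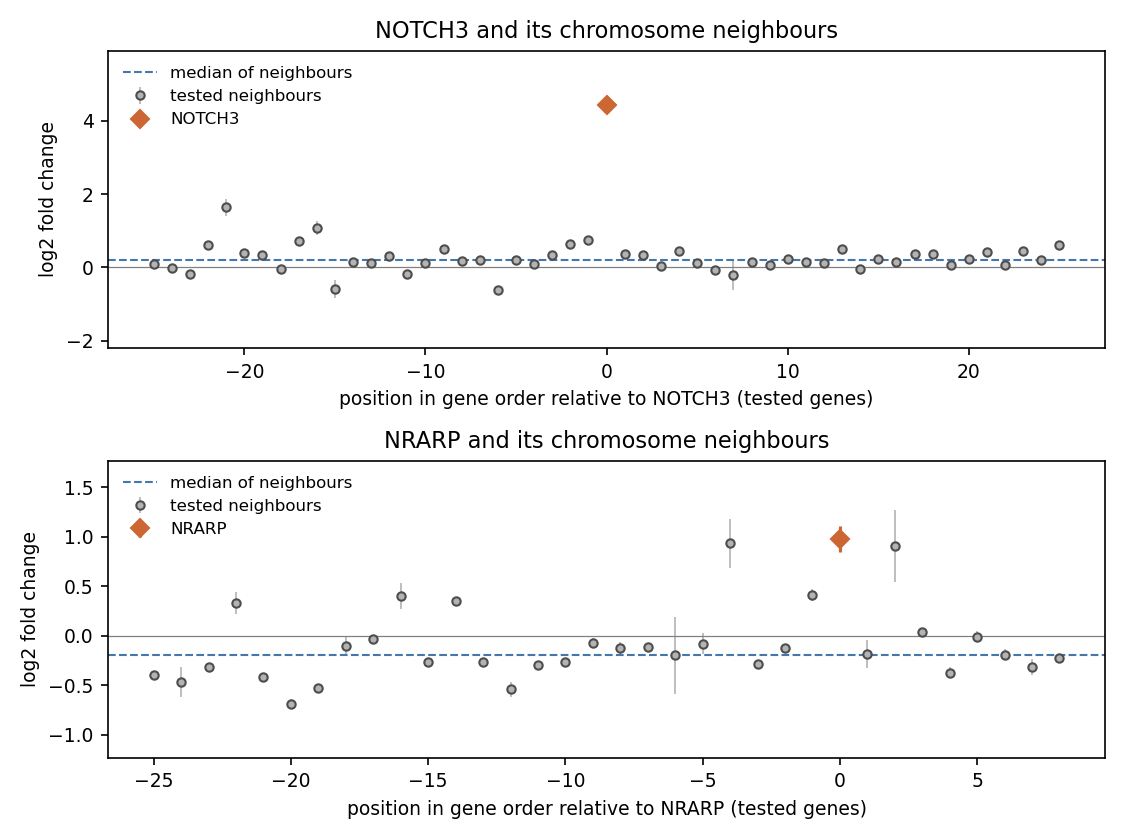
Log2 fold change (bars: SE) of NOTCH3 (top) and NRARP (bottom), drawn as diamonds, and of the tested genes on each side in gene order, with the median of the neighbours as a dashed line. NOTCH3 at 4.44 stands far above its neighbours, whose median is 0.20, and NRARP at 0.98 lies opposite in sign to its neighbours' median of -0.19.

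NOTCH1 and NRARP both lie near the end of the long arm of chromosome 9, among genes that were mostly lower in the knockout. The median of the 50 neighbours of NOTCH1 was -0.20, with 38 below 0, and once it was removed NOTCH1 stood at 0.042 in place of -0.16. The small difference of NOTCH1 was thus no larger than the median difference of the genes around it. The median of the 33 neighbours of NRARP was -0.19, with 26 below 0, and NRARP stood at 1.17 once it was removed. For NOTCH2 the median of neighbours was 0.21 and the remaining difference 0.27, against 0.48 before. For HES1 it was -0.16 and the remainder -0.23, against -0.40 before. Neighbours went both ways: 15 of the 50 around NOTCH2 lay below 0, and 14 of the 50 around HES1 lay above 0. Those of NOTCH2 include its copy NOTCH2NLA (0.95). Whether part of either difference was shared with the region was not tested. HEY1 (-0.90), JAG1 (0.33), MAML1 (-0.33) and JAG2 (0.082) kept their direction with the median of their neighbours removed.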

How the data were processed

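RNA of 6 Huh7 libraries, 3 wild-type and 3 UBE2S knockout, was compared, with groups and replicate numbers taken from the sample titles. Estimated counts per gene, not normalized, were deposited by the authors in a single table. The tools named in the submitters' processing notes are HISAT2, StringTie 1.3.1, Bowtie2 2.2.8 and DESeq2, without their roles. For the counting program, annotation, genome build and strand setting, the sources used here give nothing. Estimated counts were rounded for the tests. Genes were filtered with filterByExpr (minimum count 10), scaled by TMM and tested with edgeR 4.0.16 (R 4.3.3) quasi-likelihood F tests, with Benjamini-Hochberg adjustment over 13265 genes and a threshold of 0.05. Standard errors came from the log2 fold change and F. Identifiers of 99.4% of genes matched GENCODE release 29, which gave positions and exon lengths. The fit was tested on simulated data with few changed genes. In each draw the share of unchanged genes among edgeR's calls was above the threshold, and above that of DESeq2, and small changes were recovered only in part.

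The members and the lists of other pathway genes and markers were chosen with earlier results of these data known. Genes named were all members, UBE2S, up to 3 called genes per direction with the largest change in each pathway list (the 2 most abundant if none was called), the 5 profiles nearest that of the member with the largest change, and the 3 most abundant markers of each list; further genes complete counts of 5 or fewer or are named as not tested, not called or near 0. Some genes that this rule names are not reported here. The alternatives were other scalings and filters, DESeq2 1.42.0, limma-voom (limma 3.58.1), a replicate block, leaving out each library, coding length, and removal of the neighbours' median.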

Additional observations from a re-analysis of the deposited data

How the results depend on the processing

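The 9 tested members kept their direction under every scaling, filter, tool, block and left-out library. The standard errors given for them are those of edgeR, and each was larger with DESeq2. For NOTCH3 the SE was 0.25 with DESeq2 against 0.12, for HEY1 0.21 against 0.13 and for NRARP 0.21 against 0.13. Removing the median of chromosome neighbours turned NOTCH1 from -0.16 to 0.042; the cause was not tested. Over the left-out libraries the log2 fold change of NOTCH3 ranged from 4.16 to 4.62, HEY1 from -1.02 to -0.90, NRARP from 0.91 to 1.06, HES1 from -0.44 to -0.35 and JAG2 from 0.051 to 0.25. The other pathway genes called were 17 to 21 higher and 21 to 26 lower over the left-out libraries, and 17 and 22 with DESeq2. Calls over all genes ranged from 3437 to 4115 higher and from 3675 to 4342 lower over the left-out libraries, with 3259 and 3488 for DESeq2. With the replicate number as a block, 19 other pathway genes were called higher and 24 lower, and ITCH lost its call (edgeR adjusted p = 0.056). The sample titles give replicate numbers and name no pairing. Deviations of same-numbered libraries correlated at 0.010, -0.014 and 0.010, and not every library correlated best with its own number. The knockout libraries differed by only 1.4 to 1.55 times the variance that counting alone gives, so a pairing could go unseen in these correlations. The receptor shares by coding length were chosen after seeing the data; NOTCH1 then held 29.3% in wild type and 18.0% in the knockout, and NOTCH2 69.6% and 66.1%. DLL1, NOTCH4, HES2, HES5 and HES7 were too low for the filter. In the fit without it the log2 fold change of DLL1 was 0.32 (SE 0.88), HES2 was called lower (-2.41, SE 0.69), and NOTCH4, HES5 and HES7 were not called.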
